A study of Mus musculus with 14 samples.

Results

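Sox1, Pax6, Irx3, Sox21, Prom1 and Msi1 are genes of early neural cells, and they make up 6 of the 13180 genes read here in RNA of 4 mouse cell populations. They were chosen by measured values: in cells that kept an Oct4 reporter through neural differentiation, each gene stood above what a few percent of RNA carried over from neural progenitors would give. The differences between these cells, the stem cells and the progenitors are therefore descriptions, with no test. All 6 had their highest level in the population labelled as progenitors, a value that the choice also used.

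The parent line (Oct4-GFP-ESC) is a mouse embryonic stem cell line with a green fluorescent reporter of Oct4, the product of Pou5f1. It was grown with serum and the cytokine LIF at 10 ng/ml, over fibroblast feeder cells whose division mitomycin C had stopped. GFP-high cells (Oct4-GFP-H-ESC) were sorted from it for a strong reporter signal. For the other populations the cells went through neural differentiation in N2B27 medium and were sorted on day 8: cells without the reporter signal are the progenitors (NPC(GFP-)), and cells that still had it were put back into stem cell medium and are the resistant cells (DR-ESC). All 4 populations share the reporter, and the labels used here name no strain, clone or passage. Each population had 1 poly(A) RNA library, so no difference below has a replicate check, a standard error or a p-value.

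When pluripotent cells take a neural fate they pass through a neural plate state in which Sox1 comes on early, and regional factors such as Pax6 and Irx3 follow. SOX proteins of the B1 group (Sox1, Sox2, Sox3) keep neural progenitors undifferentiated, while Sox21, of the B2 group, is a repressor that in chick promotes neuron formation. Prom1 (prominin, CD133) is a membrane glycoprotein of the apical side of neuroepithelial cells. Msi1 (Musashi) is an RNA-binding protein of neural stem cells that represses translation of Numb, an inhibitor of Notch.

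Levels are in FPKM, which divides fragments by transcript length and by sequencing depth, so that genes can be set beside each other per length. Read depth is unknown, and FPKM summed over all genes ran from 345804 in the progenitors to 687303 in the parent line. Differences are log2((FPKM + 1) ratios), which understate the change of low genes. A gene counted as higher or lower from a 2-fold ratio on that scale, if either library of the pair had 1 FPKM or more. In the order parent line, GFP-high cells, resistant cells, progenitors, 16 pluripotency genes summed to 4847, 3196, 2417 and 173 FPKM, and 21 neuron genes to 283, 149, 110 and 1317. Pou5f1, whose reporter was sorted for, had 1881, 1037, 609 and 0.276 FPKM. It was thus lower in GFP-high cells than in the unsorted parent line (log2 ratio -0.86, and between -0.46 and -0.21 under 3 other scalings), which goes against the label, so values are given against each stem cell library separately. In bulk RNA, fewer cells that express a gene and less of its RNA per cell cannot be told apart.

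Values follow in the same order. Among the transcription factors, Sox1 had 3.73, 4.11, 14.4 and 26.6 FPKM. The resistant cells held 3.84 times the level of the parent line, and the progenitors held only 1.86 times that of the resistant cells, the smallest such gap of the 6 genes. Pax6, a paired-box and homeodomain factor of radial glia and the eye, had 2.34, 0.540, 12.7 and 52.1 FPKM. GFP-high cells held the least of it, and the resistant cells held 5.41 times the parent level and 23.4 times the GFP-high level. Irx3, an Iroquois homeodomain factor that patterns the neural tube, had 1.82, 1.36, 17.7 and 53.9 FPKM. Its 9.72 times higher level over the parent line was the largest of the 6. Sox21 had 1.84, 1.34, 9.39 and 55.1 FPKM. It was nearly level with Irx3 in the progenitors and in both stem cell libraries, while the resistant cells held more Irx3 than Sox21.

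The other 2 genes encode no transcription factor. Prom1 had 1.47, 1.26, 4.19 and 25.3 FPKM, the lowest of the 6 in the resistant cells. Msi1 had 24.0, 11.9, 43.7 and 222 FPKM, the highest of the 6 in every library. It was also the one gene above 10 FPKM in both stem cell libraries, and the resistant cells held 1.82 times the parent level and 3.67 times the GFP-high level. All 6 genes had the order progenitors, resistant cells, stem cells, which their choice largely fixes.

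**Figure D1:**
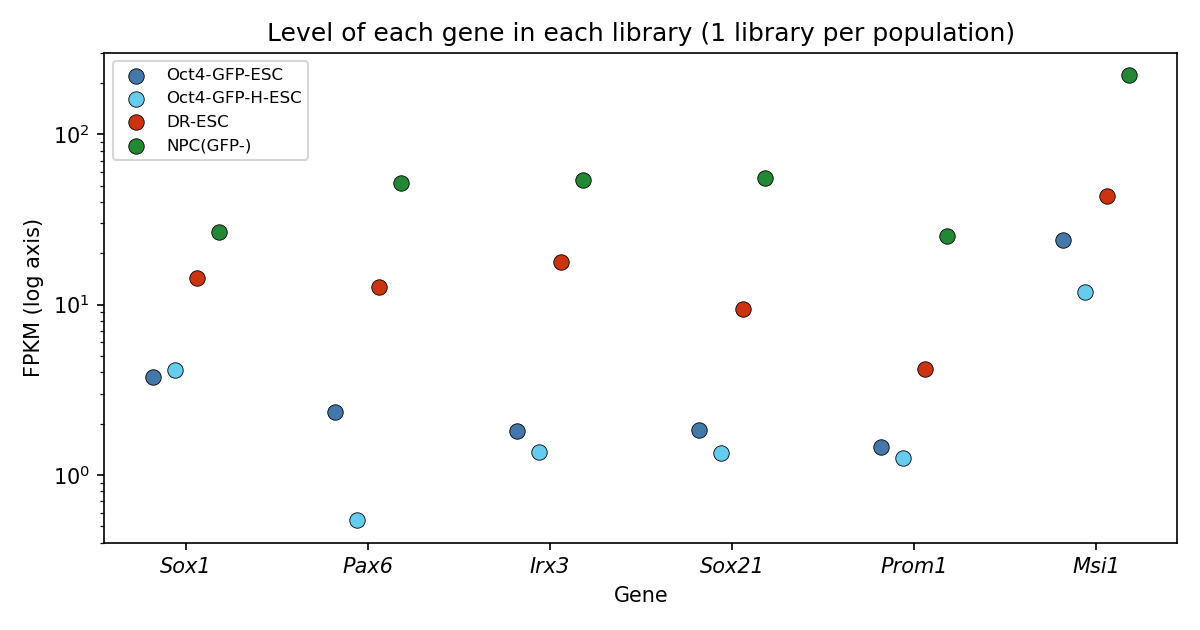
Level of each of the 6 genes in FPKM (log axis), with 1 point for each library. In every gene the resistant cells (DR-ESC) lie between both stem cell libraries and the progenitors, nearest to the progenitors for Sox1 (14.4 and 26.6 FPKM), and Msi1 lies above the other genes in each library.

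Promoter sequence is shown because these genes shared an order of levels. RefSeq windows (GRCm38.p6) covered 5 of the 6 genes with 7 windows, 2 each for Pax6 and Prom1. The window next to the annotated gene start, 250 bases long, is given for the 4 transcription factors, 5′ to 3′ on the strand of the gene, with every CpG in capitals, at chr8:12395269-12395518 (plus) for Sox1, chr2:105668646-105668895 (plus) for Pax6, chr8:91801655-91801904 (minus) for Irx3 and chr14:118237031-118237280 (minus) for Sox21. The windows of Prom1 and the second of Pax6 lie before starts inside the annotated gene and are not printed.
Sox1: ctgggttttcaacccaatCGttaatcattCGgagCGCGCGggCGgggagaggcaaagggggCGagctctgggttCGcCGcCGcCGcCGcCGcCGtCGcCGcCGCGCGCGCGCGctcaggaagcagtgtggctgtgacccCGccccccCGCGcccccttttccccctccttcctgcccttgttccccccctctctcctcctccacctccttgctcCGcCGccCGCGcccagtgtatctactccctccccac
Pax6: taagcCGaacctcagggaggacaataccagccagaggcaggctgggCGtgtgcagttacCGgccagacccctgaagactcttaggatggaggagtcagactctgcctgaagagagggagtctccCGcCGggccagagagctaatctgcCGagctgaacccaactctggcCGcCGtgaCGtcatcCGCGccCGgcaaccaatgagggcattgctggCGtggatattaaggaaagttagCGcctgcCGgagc
Irx3: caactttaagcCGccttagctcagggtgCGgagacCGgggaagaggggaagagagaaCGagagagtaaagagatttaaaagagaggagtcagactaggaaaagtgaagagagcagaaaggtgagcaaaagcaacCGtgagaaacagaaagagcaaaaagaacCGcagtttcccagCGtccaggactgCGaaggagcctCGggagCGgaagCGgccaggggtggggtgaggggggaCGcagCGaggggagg
Sox21: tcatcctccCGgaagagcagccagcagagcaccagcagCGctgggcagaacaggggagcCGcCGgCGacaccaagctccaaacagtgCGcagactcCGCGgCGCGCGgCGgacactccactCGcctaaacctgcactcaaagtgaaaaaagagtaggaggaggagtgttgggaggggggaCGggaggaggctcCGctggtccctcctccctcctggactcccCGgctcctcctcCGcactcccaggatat
Sox1 had 29 CpGs, Pax6 15, Irx3 13, Sox21 17 and the first window of Prom1 9, and the median over 32851 windows was 6. Observed over expected CpG was 0.99, 0.65, 0.79, 0.64 and 0.41 in that order, and 0.37 at the median of all windows. A ratio of at least 0.6 with at least 50% GC was met by 4 of the 7 windows, those printed for the transcription factors, and by 31.0% of all windows.

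The 7 windows were searched on both strands for the SOX motif AACAAT, then for the POU octamer ATGCAAAT, the homeodomain core TAATTA, the E-box CAGCTG and the HES-type E-box CACGTG. None of the 7 held any of them. Among all windows 9.42% held the SOX motif, 1.60% the octamer, 4.84% the homeodomain core, 13% the first E-box and 6.02% the second. This says only that these letters were not in these windows, and nothing about the factors.

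In 5 of the 6 genes the resistant cells were 2-fold or more above the parent line, as were 2.95% of 12260 genes. The log2 ratios ran from 0.84 for Msi1, the gene under that size, to 2.73 for Irx3, with a median of 1.78 against -0.29 over all genes, and 0 of the 6 were lower, as 12.2% of genes were. Msi1 reached between 1.26 and 1.59 when the libraries were scaled to each other in 3 other ways. Prom1, at 1.07, came to 0.51 with a pseudocount of 5, and against GFP-high cells to 0.55. Against GFP-high cells all 6 were higher, as were 3.65% of 12128 genes, from 1.20 for Prom1 to 3.15 for Pax6 (median 1.97, and -0.0044 over all genes), and 0 were lower, as 3.91% of genes were. The rule used these contrasts, so nothing is read from the counts.

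The resistant cells were lower than the progenitors in 5 of the 6 genes, as were 14.2% of 12649 genes. Sox1 was under 2-fold at -0.85, or -1.05 with equal FPKM sums, and Sox21 had the lowest ratio, -2.43. Progenitors exceeded the parent line in all 6 (log2 ratios of 2.55 to 4.30), as in 15.7% of genes, and GFP-high cells in all 6 (2.43 to 5.11), as in 18.5%. These comparisons share libraries with those above. Pax6, Irx3, Sox21 and Prom1 were at once 2-fold above both stem cell libraries and 2-fold below the progenitors. This stepped pattern was found in 65 of 13180 genes (0.493%), 61 of them outside the 6, Sox3, Sall2, Meis2, Sfrp2 and Irx5 included.

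Between both stem cell populations, GFP-high cells had less of 5 of the 6 genes, Sox1 being the exception, with a median log2 ratio of -0.27 beside -0.31 over all genes. For Irx3, Sox21 and Prom1 this direction turned under at least 1 of 3 other scalings, and for Pax6 and Msi1 it stayed. Pax6 alone was past 2-fold, at -1.12, where 3.65% of 12003 genes were past it in either direction, and all 3 scalings put it under that size. Msi1 followed at -0.95. As a scale for the spread, 95% of the 1209 genes within 0.25 log2 units of the stem cell level of Pax6 differed by less than 0.86 between these libraries. For the 1073 genes near the level of Msi1 this limit was also 0.86. The ratio of Msi1 in resistant cells over the parent line, 0.84, lay under it, and that over GFP-high cells, 1.79, lay above it. The other genes of the 6 were past their own limits against both stem cell libraries.

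The level in the resistant cells was also placed between the higher stem cell level (0%) and the progenitor level (100%). Sox1 stood at 45.4%, Irx3 at 30.4%, Pax6 at 20.7%, Sox21 at 14.2%, Prom1 at 11.4% and Msi1 at 9.94%, with a median of 17.5%. A set of 53 other genes, with 20 FPKM or more in progenitors and no more than 1 in either stem cell library, had a median of 2.55% and quartiles of 1.83 and 3.92%. Of these, 3 stood at or above Msi1, the highest at 114%, so this set overlaps the range of the 6. A share of 2.55% of the progenitor level would give 0.679 of the 14.4 FPKM of Sox1 in the resistant cells, 1.37 of the 17.7 of Irx3 and 5.67 of the 43.7 of Msi1. Without that share the level would be 8.96 times the higher stem cell level for Irx3, 4.84 for Pax6, 4.34 for Sox21, 3.32 for Sox1, 2.42 for Prom1 and 1.59 for Msi1. This is arithmetic on the values that chose the genes, and carry-over as a source of any gene's level was not tested.

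Such positions were not particular to the 6 genes. Of 270 genes with 20 FPKM or more in progenitors and at least 4 times the higher stem cell level, 73 (27%) stood at or above the 9.94% of Msi1. They comprise the 6 genes and 67 of 264 others, and 4 others stood at or above Sox1. Just inside that edge were Irx5 (10.1%) and Auts2 (10.4%), and just outside it Pik3c2b (9.71%) and Lrp3 (9.60%).

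**Figure D2:**
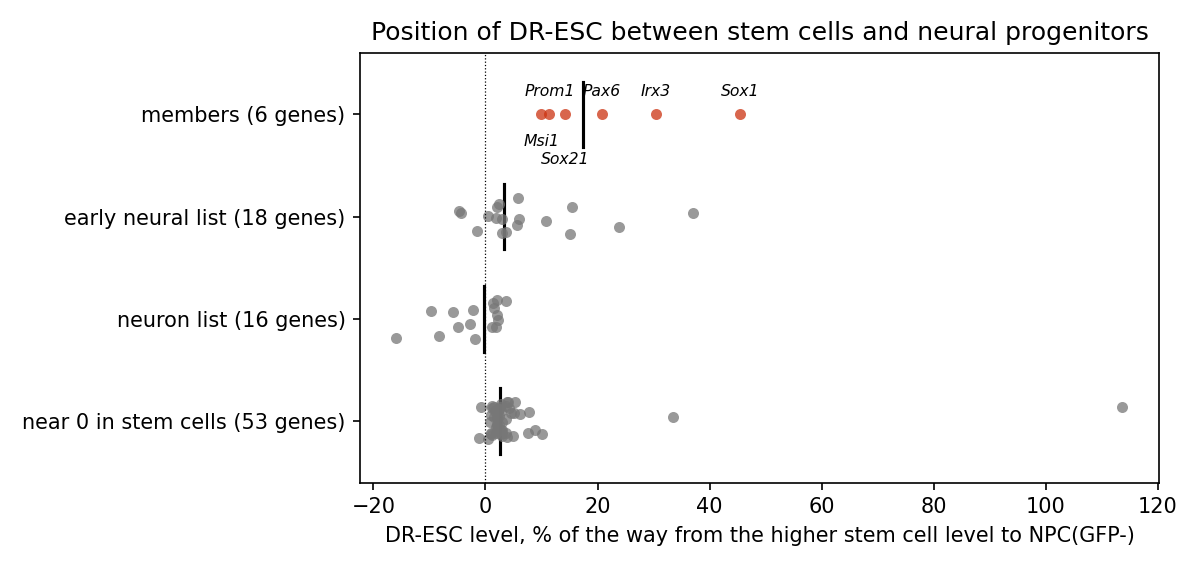
Position of the DR-ESC level, in percent of the way from the higher stem cell level to NPC(GFP-), for the 6 genes (red), 18 other early neural genes, 16 neuron genes and 53 genes near 0 in stem cells. Points are genes and black bars medians (17.5, 3.36, -0.32 and 2.55%), and no neuron gene lies above 3.68%.

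Of 30 other early neural genes listed, 28 had a row of their own. Against the parent line 10 of 22 were higher in the resistant cells and 1 lower (median log2 ratio 0.78), and against GFP-high cells 12 of 22 were higher and 1 lower (median 1.18). The shares of all genes that were higher were 2.95% and 3.65%. Hes5, Fabp7 and Zfp521 met the minimum of 1 FPKM only through the resistant cells, as did Meis2 against GFP-high cells. Listed genes under that minimum in both libraries were left out, so the filter raised these counts and medians. The lower gene was Vim both times, an intermediate filament gene that fibroblasts share, with 328, 207, 52.0 and 643 FPKM. For 18 of these genes, with 5 FPKM or more in progenitors and at least 4 times the higher stem cell level, positions ran from -4.66 to 37.0% with a median of 3.36%. Sall2 (37.0%), Zfp521 (23.8%), Sfrp2 (15.4%), Sox3 (15.1%) and Meis2 (10.9%) stood within the range of the 6. Fabp7, a fatty acid binding protein of radial glia, had 0.412, 0.0665, 5.41 and 168 FPKM and stood at 2.99%, and Hes5, a Notch target, had 0.256, 0.0344, 2.22 and 67.7 FPKM and stood at 2.91%. Nes, the intermediate filament gene nestin, had 11.7, 6.87, 7.92 and 96.9 FPKM, with less in the resistant cells than in the parent line.

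Of 21 neuron genes, 12 could be compared with the parent line, and 0 were higher and 4 lower in the resistant cells (median log2 ratio -0.77). Against GFP-high cells 0 of 11 were higher and 2 lower. Among all genes 2.95% were higher and 12.2% lower against the parent line, and 3.65% and 3.91% against GFP-high cells. Those with the largest differences from the parent line were Gap43, a growth cone protein, with 26.4, 11.2, 5.62 and 80.3 FPKM, and Stmn2, a stathmin of growing axons, with 117, 49.6, 30.1 and 59.0 FPKM. Next came Nefl, the light neurofilament chain, with 38.6, 35.8, 12.1 and 205 FPKM, and the neuronal tubulin Tubb3, with 47.3, 19.0, 18.6 and 342 FPKM. All 4 were lower in the resistant cells than in the parent line, and Nefl was lower than in GFP-high cells too. Positions of 16 neuron genes that met the limits above had a median of -0.32%, and none reached the range of the 6 genes.

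Fibroblast markers were lower in the resistant cells in 18 of 19 genes against each stem cell library, and higher in 0. Among all genes 12.2% were lower against the parent line and 3.91% against GFP-high cells. They summed to 1248, 905, 88.8 and 694 FPKM over the 4 libraries, 643 of the last being Vim, and S100a4 was listed at 0 in the resistant cells and the progenitors. GFP-high cells, sorted for the reporter, held 905 FPKM of these markers beside 1248 in the unsorted parent line, with Vim giving 207 and 328. FPKM over all genes summed to 437605 and 687303 in these libraries, so the marker sums are not on an equal scale. The part of feeder RNA in the ratios of the 6 genes was not tested.

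Within the families, Sox2, the B1 gene that pluripotent cells also use, had 232, 147, 155 and 103 FPKM, so it lacked the order of Sox1, which Sox3 shared with 4.03, 5.55, 19.4 and 96.9 FPKM. Of 11 SOX genes compared with the parent line, Sox1, Sox3 and Sox21 were higher in the resistant cells and 0 were lower. Against GFP-high cells 5 of 11 were higher, Sox11 and Sox12 being the others. The shares of all genes that were higher were 2.95% and 3.65%, and Sox1 and Sox21 were chosen by these values. Sox11, a SOX gene of young neurons, had 9.75, 6.90, 15.6 and 130 FPKM, and its relative Sox4 had 28.7, 18.9, 31.3 and 134 FPKM.

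Every one of 6 PAX genes in the table was higher in progenitors than in both stem cell libraries. Among all genes 15.7% were higher than in the parent line and 18.5% higher than in GFP-high cells. The PAX genes other than Pax6 met the minimum of 1 FPKM only through the progenitors, and Pax6 was chosen by its values. The count was thus largely fixed beforehand. Pax6 was the one PAX gene above 1 FPKM in the resistant cells. Pax3, of the dorsal neural tube and neural crest, had 0.0429, 0.0345, 0.752 and 15.3 FPKM, a position of 4.66%. Pax2, of the midbrain-hindbrain boundary, had 0.209, 0.168, 0.587 and 26.5 FPKM, a position of 1.44%. Irx5, which shares a chromosomal cluster with Irx3, was higher in the resistant cells as well, with 0.805, 0.782, 3.52 and 27.6 FPKM. Irx1 and Irx2, of the other IRX cluster, had 2.59, 2.23, 0.839 and 16.6 FPKM, and 1.21, 1.69, 2.59 and 13.1 FPKM, and neither reached 2-fold in the resistant cells on the log2(FPKM + 1) scale (log2 ratios of -0.97 and 0.70 over the parent line). Msi2, the paralog of Msi1, had 16.5, 15.5, 20.1 and 41.4 FPKM, a log2 ratio of 0.27 over the parent line.

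**Figure D3:**
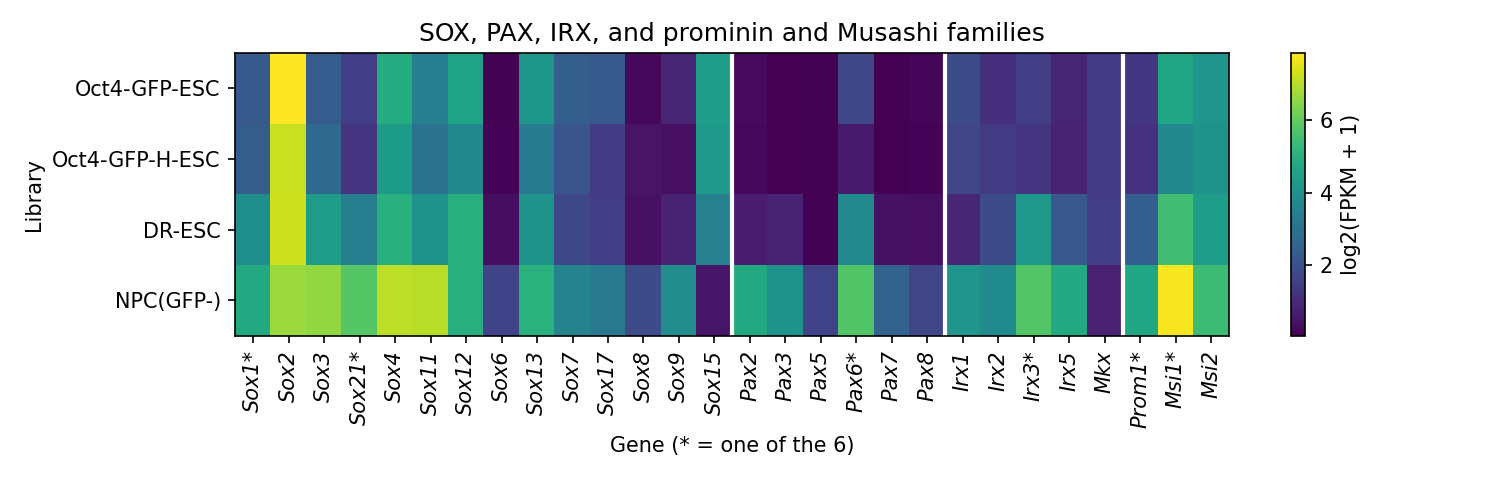
Level as log2(FPKM + 1) in the 4 libraries for genes of the SOX, PAX, IRX, and prominin and Musashi families, with an asterisk on the 6 genes. In the DR-ESC row Pax6 is the one PAX gene above 1 FPKM, Irx3 is the highest IRX gene (17.7 FPKM) and Sox2 the highest SOX gene (155 FPKM).

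Genes with the most similar pattern were found by the root mean square distance between log2(FPKM + 1) profiles, each centred on its mean over the 4 libraries, among 9839 genes with 5 FPKM or more in any of them. Nearest to Sox1 was Lmx1b, a homeodomain factor of the midbrain and hindbrain, at 0.061, with 0.446, 0.435, 3.28 and 6.55 FPKM, followed by Ccng2 (0.12) and a row of merged symbols, 2310002D06RikGalntl1 (0.16). Meis2, a homeodomain factor, was nearest to Sox21 (0.13), Prox1 and Sp8, both transcription factors of the developing nervous system, to Prom1 (0.071 and 0.081), and Dpysl2 to Msi1 (0.078). Srgap3 (0.20) and Sfrp2 (0.24) followed for Sox21, Gdpd2 (0.085) for Prom1, and Fignl2 (0.14) and Cd24a (0.15) for Msi1. Pax6 and Irx3 had no gene that close: Sfrp2, a secreted modulator of Wnt, was nearest to Pax6 (0.31) and Igfbp5 to Irx3 (0.27), and each was next nearest to the other (0.34), with Nsg2 following for both (0.36). Within the 6 the distances ran from 0.31 for Prom1 and Msi1 to 0.95 for Sox1 and Pax6.

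The 6 genes, all annotated as protein coding, lie at separate places (GRCm38.p6). Sox1 is on chromosome 8 from 12395519 to 12399555, Pax6 on chromosome 2 from 105668896 to 105698410, Irx3 on chromosome 8 from 91798511 to 91801654 and Sox21 on chromosome 14 from 118233233 to 118237030. Prom1 and Msi1 are on chromosome 5, from 43993621 to 44102047 and from 115359059 to 115455698. Of the 12 nearest genes of the table, 1 on each side, 0 were 2-fold higher in the resistant cells than in either stem cell library, 1 was lower than in the parent line and 2 lower than in GFP-high cells. Among all genes 2.95% and 3.65% were higher, and 12.2% and 3.91% lower, so nothing about these places is read from the counts. Fto, whose introns are known to hold enhancers of Irx3, had 26.4, 18.8, 22.7 and 29.6 FPKM. Elp4 overlaps the end of Pax6 and had 4.31, 3.18, 4.04 and 6.00 FPKM, and as strand is not stated, reads of the overlap cannot be told apart. Pla2g1b, next to Msi1, was lower against both, with 44.2, 20.3 and 7.19 FPKM in the first 3 libraries, and was listed at 0 in the progenitors.

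**Figure D4:**
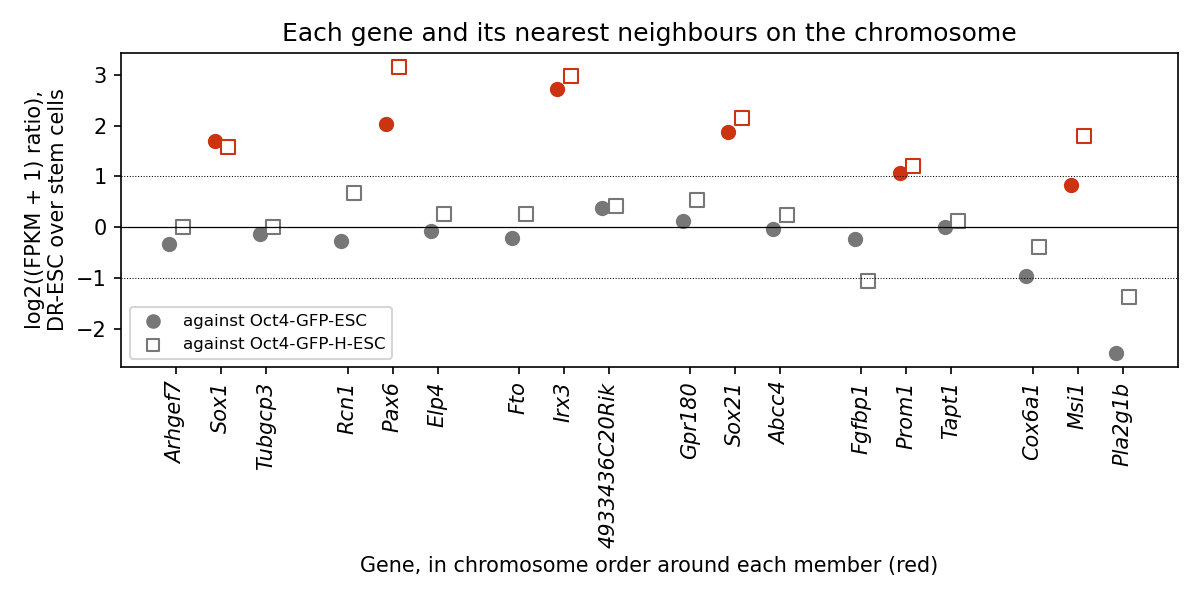
log2((FPKM + 1) ratio) of DR-ESC over Oct4-GFP-ESC (circles) and over Oct4-GFP-H-ESC (squares) for the 6 genes (red) and the nearest gene of the table on each side (grey). Dotted lines mark 2-fold. No neighbour reaches it upward, where 2.95% and 3.65% of all genes do, and Pla2g1b is lower against both stem cell libraries.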

How the data were processed

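The deposited table holds log2 values for 4 RNA libraries and names FPKM and a normalisation. They were read as log2(FPKM + 1), since undoing that form left no more than 6 significant digits in 99.7% of non-zero values, against 86.7% if no 1 was subtracted. How libraries were scaled to each other is not stated. Tools named without role or order in the submitters' processing notes are Bowtie 0.12.8, TopHat2 2.0.9, CASAVA 1.8, DESeq2 and HTSeq, with build mm10. Of 14 samples, the 8 ChIP and 2 input libraries are not used here.

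Of 13199 rows, 19 whose symbols had become dates were dropped. RefSeq (GRCm38.p6) matched 97.0% of the rest by symbol or unique synonym, and rows with merged symbols were matched to no list. With 1 library per population there was no test. The 6 genes and the 16 gene lists were chosen with earlier results of these data known. The rule for named genes allows the 6, the 3 nearest patterns and the neighbours of each, their families, and in each list the 4 with the largest difference between DR-ESC and Oct4-GFP-ESC, and the text does not name all of the neighbours, family members and list genes. Other names, such as Sall2, Zfp521, Nes, Auts2, Pik3c2b and Lrp3, were chosen after their values were seen.

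Alternatives were pseudocounts of 0.1 and 5, a minimum of 5 FPKM or none, a 4-fold size, 3 scalings (median ratio of expressed genes at 0, upper quartiles, equal sums), removal of the abundance trend, other baselines and other limits for the genes near 0. Tables were handled with pandas 2.3.3 and numpy 2.4.6 under Python 3.11.15, plots were drawn with matplotlib 3.10.9, and the code was tested on simulated data.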

Additional observations from a re-analysis of the deposited data

How the results depend on the processing

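No paired analysis was possible because each population has 1 library and the labels give no shared replicate numbers. Of 216 recomputed log2 ratios of the 6 genes, 204 kept their side of the 2-fold size, 6 went under it, 6 went over it and 0 with a 2-fold call turned. With the 4-fold size, 2 genes were higher in resistant cells than in the parent line, 3 higher than in GFP-high cells and 3 lower than in progenitors, as a stricter size gives by construction. Between GFP-high cells and the parent line, the 1 gene past 2-fold became 2 with a pseudocount of 0.1. It became 0 with a pseudocount of 5, under each of the 3 scalings, with the 4-fold size and with a minimum of 5 FPKM, which Pax6 does not reach there. The median log2 ratio of resistant cells over the parent line, across all genes, was -0.29 as deposited, 0.13 after centring expressed genes, 0.10 after upper-quartile scaling and 0.38 after equal sums. The median position of the 6 genes lay between 16.2 and 19.3% under 5 alternatives, and that of the genes near 0 in stem cells at 2.91 and 3.51% under 2. Unknown depth limits values under 1 FPKM.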

Other observations

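Genes of neural tube regions were read in the same libraries, again in the order parent line, GFP-high cells, resistant cells, progenitors. Of 6 ventral genes compared with the parent line, 3 were higher in the resistant cells and 0 lower, where 2.95% of all genes were higher and 12.2% lower. Against GFP-high cells the counts were also 3 and 0 of 6, where 3.65% were higher and 3.91% lower. Ptch1, the receptor of Sonic hedgehog and a target of that pathway, had 11.2, 7.38, 35.4 and 43.0 FPKM, while Gli1, another target, had 13.7, 7.13, 6.94 and 6.33 FPKM. Dbx1, of interneuron progenitors, had 0.0242, 0 (as listed), 1.38 and 65.3 FPKM and Nkx6-1 had 0.286, 0.184, 1.66 and 35.9 FPKM. Their positions were 2.08% and 3.87%, and both belong to the 53 genes near 0 in stem cells. Dbx1 and Nkx6-1 met the minimum of 1 FPKM only through the resistant cells. Listed genes under that minimum in both libraries were left out, so the filter raised the ventral counts.

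Some genes of neural patterning had their highest level in the resistant cells, an order that none of the 6 genes had. Bmp7, a dorsal signalling ligand, had 2.55, 1.85, 15.6 and 7.76 FPKM. Zic2, a zinc finger factor of the neural plate and the epiblast, had 10.3, 4.42, 52.7 and 8.66 FPKM. Fgf8, a ligand of the midbrain-hindbrain boundary, had 8.70, 0.199, 12.1 and 0.132 FPKM. Of the other lists compared with the parent line, resistant cells were higher in 3 and lower in 2 of 9 radial glia genes (Pax6 among the 3), 0 and 1 of 5 neural crest genes, 4 and 1 of 9 midbrain and hindbrain genes, and 3 and 0 of 4 dorsal genes. They were higher in 0 and lower in 3 of 8 mesoderm and endoderm genes, 0 and 7 of 16 pluripotency genes, and 3 and 1 of 11 partner factors of SOX and PAX6 proteins, where 2.95% of all genes were higher and 12.2% lower. Against GFP-high cells, where 3.65% were higher and 3.91% lower, the counts were 3 and 2 of 9 for radial glia, 0 and 1 of 6 for neural crest, 4 and 1 of 8 for midbrain and hindbrain, and 2 and 0 of 4 for dorsal genes. For mesoderm and endoderm they were 0 and 2 of 8, for pluripotency 1 and 3 of 16, and for partner factors 3 and 0 of 11. Lmx1b, Hoxb1, Fabp7 and Olig3, among others, met the minimum of 1 FPKM only through the resistant cells. The filter thus raised the counts of higher genes in the lists that hold them.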
